A study of Mus musculus with 9 samples.

Results

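The Notch receptors Notch1, Notch2 and Notch3, the ligands Dll1, Dll3 and Jag1, and the effectors Hes1, Hes5, Hey1 and Nrarp were followed through differentiation of adult mouse hippocampal progenitors. Members were chosen by gene symbol: each array feature (probe) whose platform annotation named 1 of these 10 genes was taken, out of 19057 genes on the array. They were represented by 12 probes. Of these, 7 probes, 1 each for 7 genes, were detected on at least 3 of 9 arrays and entered the tests together with probes of 11009 genes in all. Notch2, Dll3 and Hes5 did not pass this filter and are described by their signal alone.

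Total RNA came from neural stem and progenitor cells (NSCs/NPCs) of the dentate gyrus of adult C57BL6 mice, grown in primary culture. Cells were taken as proliferating neurospheres in medium with growth factors (proliferation), on day 2 of differentiation (early differentiation) and on day 7 (late differentiation), and each stage was measured on 3 MouseWG-6 v2.0 arrays from Illumina. Neurospheres float, whereas the differentiating cells were grown on coated dishes, so culture format, medium and stage cannot be told apart. The arrays of a stage were labelled biological replicates, but the labels do not say whether they came from separate animals or cultures, so the p-values measure the spread between these samples, which may be technical. In bulk RNA, fewer cells expressing a gene and less RNA per cell cannot be told apart.

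Notch receptors are cell surface proteins that are bound by Delta and Jagged ligands on neighbouring cells. Binding leads to cleavage by an ADAM protease and by gamma-secretase, and the freed intracellular domain joins the DNA-binding protein RBPJ to switch on target genes. In the adult dentate gyrus this pathway is known for keeping neural stem cells undifferentiated, with the HES and HEY repressors acting against proneural genes.

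Promoter sequences are shown because the effectors are classical targets of RBPJ and are themselves DNA-binding repressors, so that the letters each promoter carries can be set beside the levels below. RefSeq promoters of 300 bases (build GRCm38.p6, 250 bases before to 50 after the start of the gene) were given for 8 of the 10 genes, not for Hes1 and Hey1. Each was searched on both strands for the core of the RBPJ site, TGGGAA, and for the N-box, CACNAG. A further search was for CACGNG, called the class C site here, which takes in that of HES and HEY proteins. These letters were present in 25.56%, 42.48% and 27.48%, respectively, of 32851 mouse promoters of the same length, so a match is a description and not a binding site. An N-box and a class C site can be the same letters, as with CACGAG.

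The RBPJ core was found in the promoter of Hes5 alone among the 8 genes. It lay 226 to 221 bases before the start on the reverse strand and 82 to 77 bases before it on the forward strand, in capitals here (chr4:154960673-154960972, plus strand).
Hes5: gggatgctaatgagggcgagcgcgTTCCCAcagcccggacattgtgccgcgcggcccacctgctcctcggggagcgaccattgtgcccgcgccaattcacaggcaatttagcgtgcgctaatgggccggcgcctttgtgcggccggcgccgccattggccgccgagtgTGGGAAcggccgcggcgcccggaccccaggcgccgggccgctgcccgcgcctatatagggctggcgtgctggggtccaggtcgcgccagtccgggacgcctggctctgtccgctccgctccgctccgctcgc

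The promoter of Nrarp held a class C site, CACGTG, 108 to 103 bases before the start, and N-boxes on the reverse strand 179 to 174 and 79 to 74 bases before it. Jag1 held class C sites 249 to 244 and 171 to 166 bases before the start. In Notch3 an N-box that was also a class C site lay 204 to 199 bases before the start, with another N-box 159 to 154 bases before it. These 3 genes are shown because their levels fell at both stages of differentiation. Capitals mark the N-box and class C letters (Nrarp, chr2:25180508-25180807, plus strand, Jag1, chr2:137116471-137116770, minus strand, Notch3, chr17:32166841-32167140, minus strand).
Nrarp: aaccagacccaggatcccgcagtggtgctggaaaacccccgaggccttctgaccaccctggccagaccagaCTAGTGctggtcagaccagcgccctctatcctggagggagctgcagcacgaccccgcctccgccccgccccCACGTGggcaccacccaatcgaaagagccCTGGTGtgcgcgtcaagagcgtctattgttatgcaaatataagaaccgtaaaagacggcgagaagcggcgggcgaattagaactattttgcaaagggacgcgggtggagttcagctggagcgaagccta
Jag1: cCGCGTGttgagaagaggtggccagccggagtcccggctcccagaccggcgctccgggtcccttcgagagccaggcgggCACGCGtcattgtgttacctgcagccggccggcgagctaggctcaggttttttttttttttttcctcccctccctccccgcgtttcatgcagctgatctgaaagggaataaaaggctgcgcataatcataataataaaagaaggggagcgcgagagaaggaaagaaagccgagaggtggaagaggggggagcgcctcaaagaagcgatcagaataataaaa
Notch3: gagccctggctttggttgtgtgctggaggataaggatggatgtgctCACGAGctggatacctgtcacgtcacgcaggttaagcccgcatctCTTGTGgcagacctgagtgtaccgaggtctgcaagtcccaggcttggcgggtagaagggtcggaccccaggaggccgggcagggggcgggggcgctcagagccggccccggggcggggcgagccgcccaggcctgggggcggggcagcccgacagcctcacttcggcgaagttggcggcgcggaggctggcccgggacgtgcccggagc

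Notch1, Notch2 and Dll1 also held N-box or class C letters, and Dll3 held none of the 3 motifs. The absence of a match says only that these letters are not in this window.

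The arrays detected 18310 to 19919 probes each, and the mean signal was 218 to 228 in proliferation, 157 to 171 in early and 173 to 180 in late differentiation. Proliferation was set apart from the other stages along the first principal component, with 76.4% of the variance. Of 10 neural stem cell markers, 8, among them Sox2, Nes and Vim, were detected on each array, while Prom1 was detected on no proliferation array and Pax6 on 2 early arrays alone. The proliferation and late arrays shared 1 BeadChip and the early arrays lay on another, so that in any comparison with early differentiation the chip and the stage cannot be told apart. Levels are normalised log2 intensities, and the lowest level of a detected probe was 4.41 to 4.48 on the different arrays. A gene was called higher or lower when limma's adjusted p was under 0.05 and the fold was at least 1.5.

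The first question was how the Notch genes differed between late differentiation and proliferation. Of the 7 genes tested, Hey1 rose, Hes1, Nrarp, Notch3 and Jag1 fell, and Notch1 and Dll1 were not called. The background in this comparison was large: 33.7% of the 11009 genes were called, 17.6% higher and 16.1% lower. Their median change was 0.01 on the log2 scale, against -0.60 for the 7 Notch genes. At early differentiation the same genes were called in the same directions, again 1 higher and 4 lower, against 31.8% of all genes (16.8% higher and 15.1% lower). The median change there was 0.00 for all genes and -0.66 for the Notch genes. The comparisons use the same proliferation arrays and are therefore given side by side for each gene. Jag1 passed the filter through its proliferation arrays only, so that its difference was built into the selection, and counts and medians over the 7 genes are a description. The early median was the value of Jag1 itself. Late and early differentiation differed far less, with 3.87% of genes called (1.54% higher and 2.33% lower) and Dll1 the 1 Notch gene among them.

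**Figure D1:**
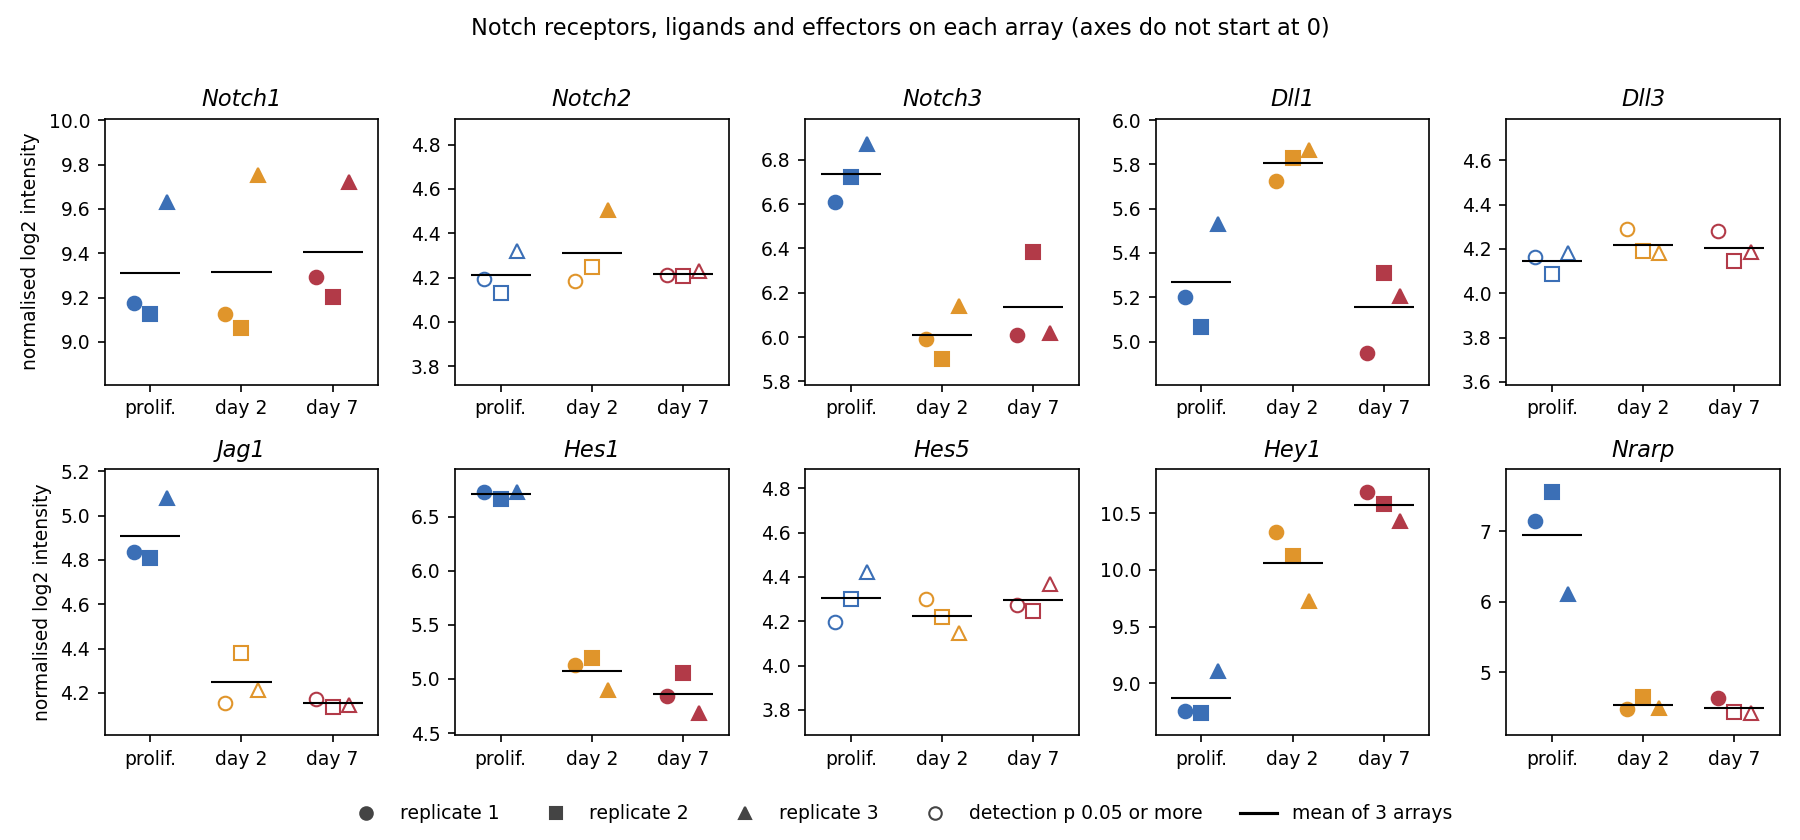
Normalised log2 intensity of the 10 Notch genes (vertical axis, scaled per gene) on each of the 9 arrays by stage (horizontal axis), with replicates as symbols, open symbols for a detection p of 0.05 or more and a line at the stage mean. Hes1, Nrarp, Jag1 and Notch3 lie highest in proliferation and Hey1 lowest, Dll1 is highest on day 2, and Notch1 is highest on replicate 3 of every stage (for Notch2 and Hes5, 1 of 2 probes is drawn).

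Hes1, a bHLH repressor and the best known Notch target in neural progenitors, fell early and stayed low. Its level was 6.73, 6.67 and 6.73 on the proliferation arrays, 5.13, 5.19 and 4.89 on the early arrays and 4.85, 5.06 and 4.68 on the late arrays. Every proliferation array lay above every array of differentiating cells, and the early and late arrays overlapped. The fall was 3.11-fold early (-1.64 ± 0.12 on the log2 scale, SE, n = 3 arrays per stage, limma adjusted p = 1.02e-06) and 3.59-fold late (-1.85 ± 0.12, adjusted p = 3.48e-07). Late minus early was -0.21 (95% confidence interval -0.47 to 0.06, limma adjusted p = 0.353). As deposited, before background correction, the bead signal of Hes1 was 190 to 212 in proliferation, 88.0 to 95.04 early and 89.1 to 94.0 late, and it was detected on each array.

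Hey1, a related repressor of the HEY family, moved the other way. Its level was 8.75, 8.74 and 9.11 in proliferation, 10.34, 10.13 and 9.73 early and 10.69, 10.59 and 10.43 late. The 3 stages did not overlap, with late highest and proliferation lowest. Hey1 rose 2.29-fold early (1.20 ± 0.16, limma adjusted p = 1.07e-04) and 3.26-fold late (1.70 ± 0.16, adjusted p = 6.89e-06). The step from early to late was 0.51 ± 0.16 and did not pass the test (limma adjusted p = 0.0946). Gaps between stages without overlap were common: they were found for 61.6% of all genes between late and proliferation, 61.3% between early and proliferation and 28.6% between late and early. In the deposited signal, early replicate 3 (703) lay within the range of the proliferation arrays (606 to 816), so the separation of the early stage was seen after normalisation only. Without normalisation between arrays the early change was 0.52 and was not called.

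Nrarp, an ankyrin repeat protein that is induced by Notch and dampens it, showed the largest fall of the 7 genes. Its level was 7.15, 7.56 and 6.11 in proliferation, 4.47, 4.65 and 4.50 early and 4.63, 4.44 and 4.42 late. Proliferation replicate 3 was well below the other 2 arrays of its stage, and all 3 stood above every array of differentiating cells. The fall was -2.40 ± 0.28 early (5.29-fold, limma adjusted p = 3.34e-05) and, as a fitted value, -2.45 ± 0.28 late (adjusted p = 2.67e-05). Nrarp was detected on 3 early arrays and 1 late array, close to the level of the dimmest detected probes. On the other 2 late arrays it was not above background, so no late fold is given. Late minus early was -0.04 (95% confidence interval -0.65 to 0.57).

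Hes5, the other HES repressor known from neural stem cells, was not detected on any array by either of its 2 probes. The levels of both lay between 4.15 and 4.42. Hes5 was thus not above background, and no difference between stages was detectable at this signal.

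**Figure D2:**
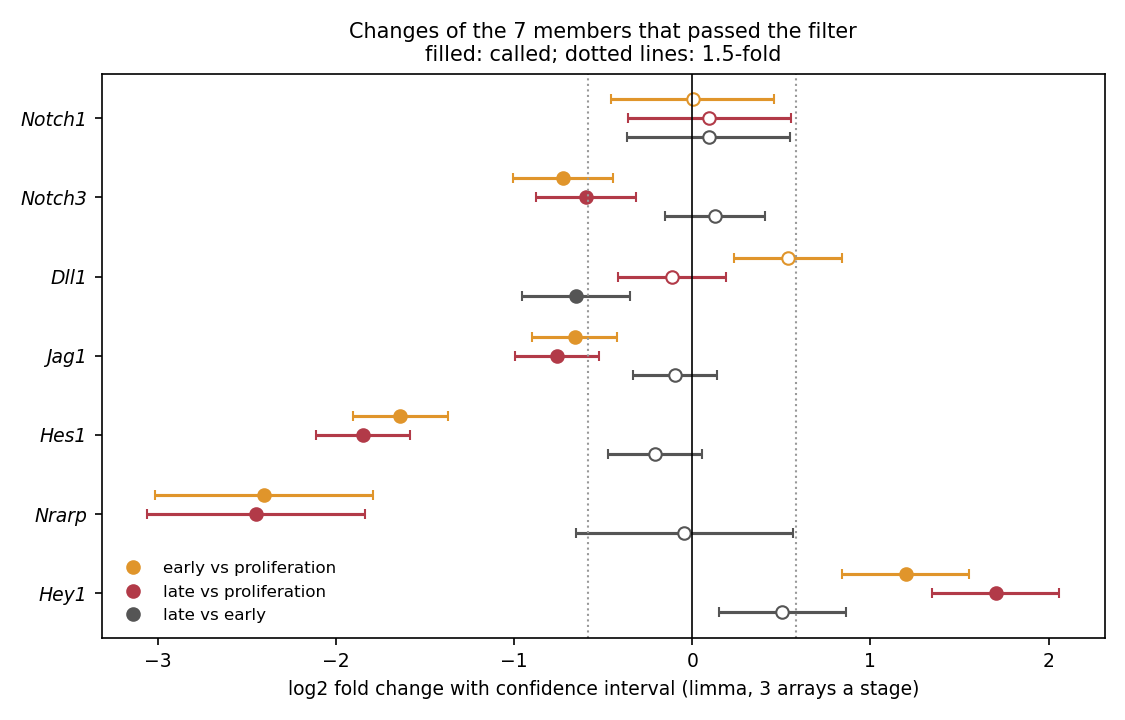
Log2 fold change (horizontal axis) of the 7 Notch genes that passed the filter, with 95% confidence intervals from limma, for early against proliferation, late against proliferation and late against early. Filled points were called, dotted lines mark a 1.5-fold change, and late against early only the Dll1 point (-0.65) is filled.

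Among the receptors, Notch3 fell, and Notch1 was not called in any comparison. Notch1, the main receptor of adult neural stem cells, was at 9.17, 9.13 and 9.63 in proliferation, 9.13, 9.06 and 9.75 early and 9.29, 9.20 and 9.72 late. The stages overlapped fully, and replicate 3 was the highest array of each. Late minus proliferation was 0.09 ± 0.21 (95% confidence interval -0.36 to 0.55, limma adjusted p = 0.737) and early minus proliferation 0.00 ± 0.21 (-0.45 to 0.46, adjusted p = 0.994). With a replicate block the limma adjusted p-values were 0.465 and 0.988. Without normalisation between arrays Notch1 was called lower early (-0.68, limma adjusted p = 0.0117), a value outside the interval above, while the median of all genes was -0.41 in that setting. Replicate 3 exceeded the mean of replicates 1 and 2 by 0.48 in proliferation, 0.66 early and 0.47 late, and only 7.74%, 2.73% and 7.27% of genes deviated more in either direction. Without replicate 3 of any stage, early minus proliferation was -0.06.

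Notch3, a receptor also expressed by neural stem cells and by mural cells of blood vessels, was at 6.61, 6.72 and 6.87 in proliferation, 5.99, 5.90 and 6.14 early and 6.01, 6.38 and 6.02 late. Proliferation lay above both other stages, which overlapped. The fall was 1.65-fold early (-0.72 ± 0.13, limma adjusted p = 7.11e-04) and 1.51-fold late (-0.60 ± 0.13, adjusted p = 0.00241). The late value lay at the edge of the 1.5-fold rule and dropped below it without proliferation replicate 3 (-0.52), late replicate 1 (-0.54) or late replicate 3 (-0.54), with adjusted p-values still under 0.05. It also dropped below the rule without replicate 3 of any stage (-0.47). With an offset of 50 neither the late (-0.43) nor the early value (-0.51) reached 1.5-fold. Of 11 endothelial and mural cell markers only 2, Kdr and Acta2, passed the filter, and 5 (Cdh5, Cldn5, Pdgfrb, Rgs5 and Myh11) were detected on no array. The summed level of the 2 that passed was 52.8 to 80.8 in proliferation, 202 to 445 early and 150 to 335 late. The rise of the sum was that of Acta2 (2.70 early and 2.20 late), and Kdr was not called (0.14 and 0.09).

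Notch2 had 2 probes. The first was detected on 1 of 9 arrays, early replicate 3, at 4.51, and ranged from 4.13 to 4.32 on the others. The second was detected on none.

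The ligands followed different courses. Dll1, a Delta ligand of progenitors that commit to the neuronal lineage, was at 5.20, 5.07 and 5.53 in proliferation, 5.72, 5.83 and 5.86 early and 4.95, 5.31 and 5.20 late. Each early array stood above every array of the other 2 stages, which overlapped. Against proliferation this held after normalisation only: the deposited signal of Dll1 was 110 to 112 early, within the 104 to 126 of the proliferation arrays, and without normalisation between arrays early minus proliferation was 0.15 (limma adjusted p = 0.416). Dll1 was lower late than early (-0.65 ± 0.14, 1.57-fold, limma adjusted p = 0.0201). Early minus proliferation was 0.54 ± 0.14 (1.45-fold, limma adjusted p = 0.00717), which fell short of the 1.5-fold rule, and late minus proliferation was -0.11 ± 0.14 (adjusted p = 0.530). The late against early call was lost when early replicate 1, 2 or 3 or late replicate 1 was left out (adjusted p = 0.0524, 0.0755, 0.0592 and 0.0677), and in 9 of 21 alternatives in all. These included no normalisation (limma adjusted p = 0.0515), a common 75th percentile (0.0952), the deposited value table (0.0743) and an offset of 50, where the change was -0.37. Early minus proliferation was called without proliferation replicate 3 (0.66) or replicate 3 of any stage (0.64), with the 75th percentile (0.85) and from the deposited value table (0.93). BeadChip and the early stage cannot be told apart in either value.

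Jag1, a Jagged ligand, was detected on the 3 proliferation arrays alone, at 4.84, 4.81 and 5.08. It was not well above background on the other arrays, where its level was 4.15 to 4.38 early and 4.14 to 4.17 late. With the reported offset, Jag1 was therefore at least 1.40-fold lower early (fitted change -0.66 ± 0.11, limma adjusted p = 4.03e-04). Late, it was at least 1.38-fold lower (-0.76 ± 0.11, limma adjusted p = 1.40e-04). Jag1 passed the filter through its proliferation arrays alone, so a difference was built into the selection. The p-values are therefore no test of that difference. The bounds set its proliferation mean against the lowest level of a detected probe on each array, and they depend on the offset. With an offset of 50 the change was -0.27 early and -0.31 late, short of 1.5-fold, and was not called. With background subtracted and signals floored, the change was -0.05 at both stages and was not called. Without proliferation replicate 3 the early change was -0.56, short of 1.5-fold.

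Dll3, a Delta-like protein that acts inside the cell rather than as an activating ligand, was detected on no array, at levels of 4.09 to 4.29.

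**Figure D3:**
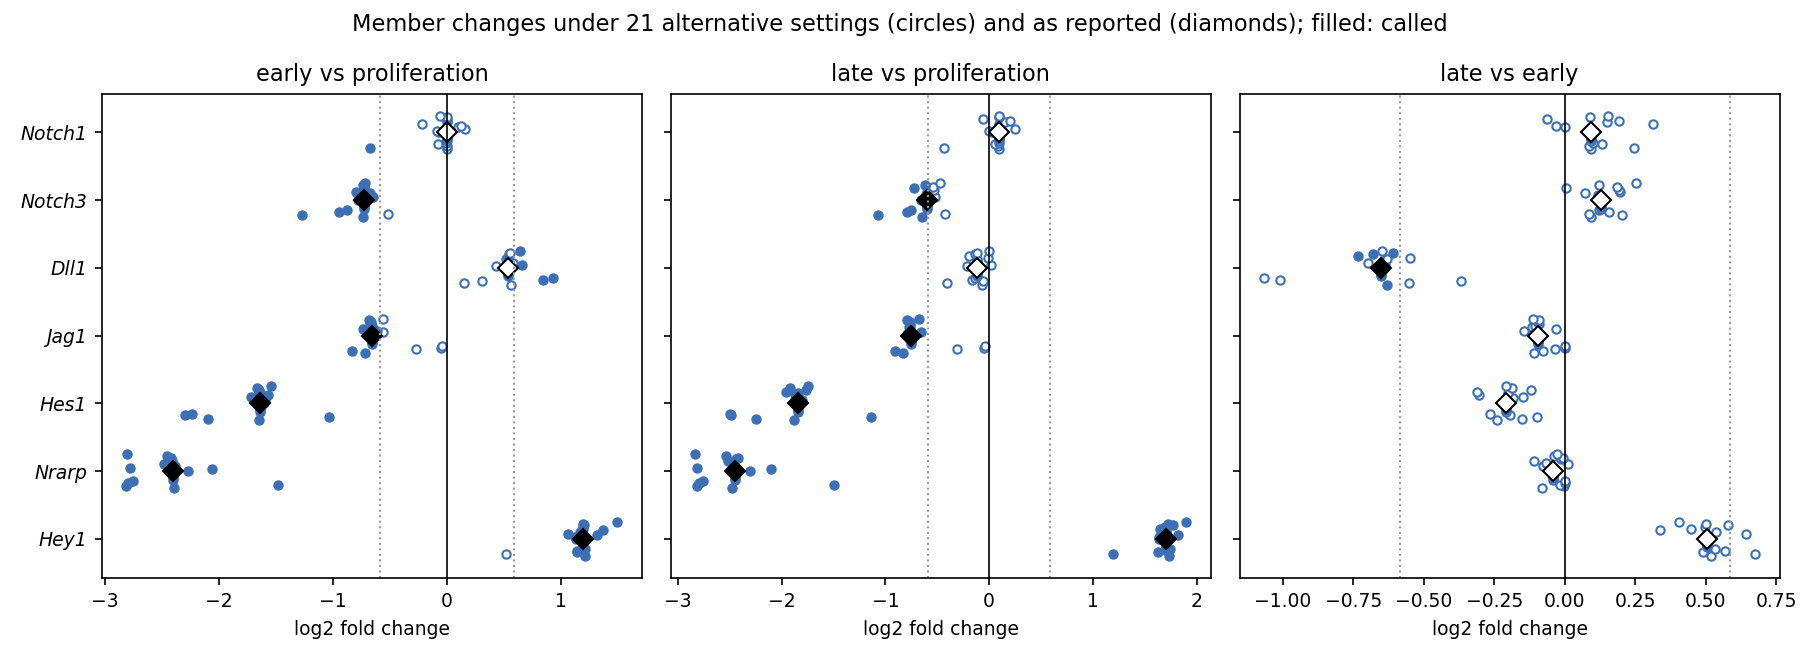
Log2 fold change (horizontal axis) of the 7 Notch genes under each of 21 alternative settings (circles) and as reported (diamonds), in 3 panels for the 3 comparisons, filled where called and with dotted lines at 1.5-fold. Hes1 and Nrarp are filled throughout the comparisons with proliferation, while Dll1 in late against early and Jag1 and Notch3 against proliferation cross the line under some settings.

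Other pathway genes were counted from lists covering 78 genes, of which 70 were on the array and 49 passed the filter. Against proliferation, 7 of the 49 (14.3%) were called higher and 11 (22.4%) lower late, with a median of -0.03 on the log2 scale, and 8 (16.3%) were higher and 10 (20.4%) lower early, with a median of -0.07. The shares over all genes were 17.6% and 16.1% late and 16.8% and 15.1% early. Late against early, 2 were lower and none was higher of the 49. Without normalisation between arrays none was called higher and 17 were called lower early, while the median of all genes was -0.41. Of the genes named below, Dner (0.56), Aph1b (0.43), Psen2 (0.46), Mib2 (0.28), Dtx4 (0.49), Numb (0.34) and Cir1 (0.44) then lost their early calls. Numb (0.40) and Cir1 (0.48) lost their late calls as well.

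Of the other receptors and ligands, 5 of 9 genes passed the filter, with 1 higher and 1 lower at each stage. Dner, a neuronal non-canonical ligand, rose by 1.26 ± 0.21 early (limma adjusted p = 4.08e-04) and 1.22 ± 0.21 late (adjusted p = 4.99e-04). Mfap2, a microfibril protein, fell at both stages (-0.68 ± 0.11 early and -0.62 ± 0.11 late). Its calls were lost with an offset of 50, with the 75th percentile (-0.19 at both stages), with the deposited value table (-0.15 at both) and without replicate 3 of any stage, and the late call also without proliferation replicate 2 or 3 or late replicate 3 (-0.58, -0.56 and -0.57). Dlk1, a non-canonical ligand and imprinted gene, varied widely among replicates (SD 0.70 to 0.86) and was not called (0.46 ± 0.48 early and 0.60 ± 0.48 late). With a replicate block its late value was called (limma adjusted p = 0.00200).

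Genes that process and present Notch and its ligands moved in both directions. Of the cleaving enzymes, 2 of 7 rose and 1 fell at each stage. The gamma-secretase subunits Aph1b (1.06 ± 0.12 early and 1.33 ± 0.12 late) and Psen2 (0.87 ± 0.12 and 1.15 ± 0.12) rose, and Adam17, a metalloprotease that sheds cell surface proteins, fell (-0.60 ± 0.10 and -0.83 ± 0.10). Its early value lay at the edge of the 1.5-fold rule and was not called without proliferation replicate 2 (-0.56) or with an offset of 50 (-0.54). The early call of Psen2 was also lost with that offset (0.53). Of 8 genes of receptor glycosylation and ligand endocytosis, 1 rose and 2 fell at each stage. The ubiquitin ligase Neurl1a fell early (-1.90 ± 0.21) and late (-2.92 ± 0.21), and its late level was below its early level (-1.02 ± 0.21, limma adjusted p = 0.0176). That last call was lost without early replicate 1 or 3 or late replicate 3 (adjusted p = 0.0704, 0.0566 and 0.0510). It was also lost with an offset of 50 (limma adjusted p = 0.0507), the 75th percentile (0.0854), the deposited value table (0.0630) and without the filter (0.0652). The endocytic adaptor Epn2 fell as well (-2.42 ± 0.16 early and -2.43 ± 0.16 late). Mib2, a ubiquitin ligase that acts on Notch ligands, rose by 0.96 ± 0.12 early and 1.16 ± 0.12 late. Lfng, a glycosyltransferase that modifies Notch, was not called (-0.36 ± 0.13 early and -0.47 ± 0.13 late) and was detected on no late array.

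Of 10 genes of Notch turnover and inhibition, 2 were higher and 2 lower early, and 2 higher and 1 lower late. Numb, the endocytic inhibitor of Notch, rose by 0.98 ± 0.12 early and 0.91 ± 0.12 late, and Dtx4, a Deltex ubiquitin ligase, by 1.14 ± 0.13 and 1.27 ± 0.13. Aak1, a kinase of endocytic adaptors, fell (-0.71 ± 0.15 and -1.02 ± 0.15). With an offset of 50 Aak1 was not called (-0.39 early and -0.52 late). Of 16 genes of the nuclear complex and its corepressors, 2 rose and 3 fell early, and 1 rose and 4 fell late. The Groucho corepressor Tle2 fell (-1.73 ± 0.11 early and -2.05 ± 0.11 late), as did the deacetylase Hdac2 (-0.79 ± 0.12 and -0.85 ± 0.12). Tle1, a Groucho corepressor too, fell late (-0.95 ± 0.19) but was not called early (-0.16 ± 0.19), and late was below early (-0.79 ± 0.19, limma adjusted p = 0.0375). This last value was not called in any of the fits without proliferation replicate 1 or 2, early replicate 1 or 2, or late replicate 2 or 3 (adjusted p = 0.0586 to 0.114). Nor was it called without normalisation between arrays, with an offset of 50, with the 75th percentile or with the deposited value table. The same held without the filter and with only the 6 arrays of the 2 stages (limma adjusted p = 0.0558 to 0.146 over these settings). Of the same family, Tle4 was called higher early (0.62 ± 0.10) and was not called late (0.43 ± 0.10). Tle3 was called at neither stage (-0.13 early and -0.03 late, each ± 0.15). Cir1, a corepressor that binds RBPJ, rose by 0.92 and 0.86, each ± 0.13. Its late call was lost with an offset of 50 (0.57). The probe for Rbpj itself was detected on no array (mean level 4.19, 4.26 and 4.26), which does not tell whether Rbpj RNA was absent.

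Of 9 other HES and HEY family genes 2 passed the filter. Hes6, which opposes Hes1, fell late (-0.74 ± 0.12, limma adjusted p = 2.59e-04) and was not called early (-0.42 ± 0.12, adjusted p = 0.0108). Of 9 proneural factors 1 passed. It was Insm1, a factor of dividing neuronal progenitors, which fell early (-1.06 ± 0.22) and was not detected on any late array, at least 2.77-fold lower than in proliferation.

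Markers of some cell types moved with the stages, and the part of cell types in the changes of Hes1, Hey1, Nrarp, Notch3, Jag1 and Dll1 was not tested. Of 9 astrocyte markers 8 passed, and their summed level was 4617 to 5385 in proliferation, 15341 to 18326 early and 14337 to 16818 late. Gja1, the brightest of them (mean level 11.86, 13.48 and 13.44), made up most of the sum. Of the 8 genes 5 were called higher early and 6 late, and none was lower. Aldh1l1 and S100b were called at neither stage. Of 10 oligodendrocyte lineage markers 6 passed, with sums of 8720 to 11264, 5216 to 6278 and 2643 to 3906. This fall was that of its brightest gene, Olig1 (mean level 13.29, 12.33 and 11.42), while of the 6 genes 3 were higher and 2 lower early, and 2 higher and 2 lower late. Of 8 neuron markers 6 passed, at 1928 to 2497, 2219 to 2520 and 1934 to 2194. This sum was mostly that of its brightest gene, Map2 (mean level 11.08, 11.09 and 10.90). Of the 6 genes 1, Rbfox3, was called higher early (1.22), and none was called late. Dcx was detected on 0, 2 and 3 arrays of the stages in the same order and was not called (0.25 early and 0.58 late). Of 7 microglia markers 1 passed, at 19.8 to 26.1 over all arrays. The neural stem cell list, of which 9 of 10 passed, summed to 11161 to 15571, 24007 to 25004 and 24324 to 25256. This rise was mostly that of Slc1a3, its brightest gene (0.62 early and 0.59 late), and Sox9 (1.89 and 1.76). The sum therefore does not stand for the list as a whole. Of the 9 genes 6 were higher and 2 lower early, and 7 higher and 1 lower late. Fabp7 fell at both stages (-0.90 early and -1.72 late) and Nes fell early (-0.66), against the direction of the sum.

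The genes whose levels followed those of Hes1 and Hey1 most closely over the 9 arrays were listed by Pearson's r, as a description, since most of the variation on these arrays was that between stages. For Hes1 they were B3galt6 (0.997), Plvap (0.996), Dnah11 (0.996), Smtn (0.995) and Lmnb1 (0.995). Each of these 5 was highest in proliferation. Lmnb1, which encodes lamin B1 of the nuclear envelope, averaged 9.26 in proliferation, 5.83 early and 5.40 late. For Hey1 they were Lgals3 (0.989), Armc2 (0.984), Setbp1 (0.984), Anxa5 (0.983) and Rhob (0.983), each of which was highest late. Lgals3, which encodes galectin-3, averaged 6.48, 9.56 and 10.88 in the same order.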

How the data were processed

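RNA of 9 samples, 3 per stage, was hybridised to MouseWG-6 v2.0 BeadChips. The deposited intensity (mean bead signal) and detection p-value of 45281 probes came from GenomeStudio, as exported by the authors (version not given in the sources used here), and by their values were neither normalised nor background-subtracted. The deposited value table, a scaled and background-subtracted intensity, was an alternative only. Platform annotation gave 34885 probes 1 symbol.

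Background was corrected with the normal-exponential model of limma 3.58.1 under R 4.3.3, inferred from detection p-values, with an offset of 16, which compresses changes of dim probes. Quantile normalisation and log2 followed. The filter kept 20935 probes, each detected (p under 0.05) on 3 or more arrays. All 9 arrays entered 1 limma fit of stage means (lmFit, eBayes), with Benjamini-Hochberg adjustment over the kept probes. The brightest kept probe stood for its gene. The number of arrays limits the precision.

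Members, pathway and marker lists, tests and alternatives were chosen with earlier results of these data known. All members were named, with up to 3 called genes of each pathway list per comparison with proliferation by absolute change, Rbpj, Hes6, Lfng and Dlk1 regardless (1 further gene is not reported here), and the 5 genes most correlated with Hes1 and with Hey1. Tle3 and Tle4 were named beside Tle1 and Tle2. Alternatives covered normalisation, offset, table, filter, probe unit, call rule, arrays fitted, each array left out and a replicate block. Deviations from stage means of same-numbered arrays were correlated: r was 0.165, 0.146 and 0.251 for early and proliferation, 0.242, 0.139 and 0.318 for late and early, and 0.0426, 0.0397 and 0.126 for late and proliferation. By a minimum of 0.1 in every pair, numbers paired the samples in the former 2 comparisons only. Scripts were tested on simulated data.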

Additional observations from a re-analysis of the deposited data

Results flagged for a closer look

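The effect of differentiation on Dll1 relative to proliferation differed between day 2 and day 7, by the direct contrast of the stages: -0.65 ± 0.14 on the log2 scale (late minus early, limma adjusted p = 0.0201, n = 3 arrays per stage). Dll1 stood at 5.72 to 5.86 on the early arrays and at 4.95 to 5.31 on the late arrays. BeadChip and the early stage cannot be told apart in this value, and its adjusted p ranged from 0.0122 to 0.0952 over the alternatives.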

How the results depend on the processing

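Each member's change was recomputed under 21 alternatives per comparison, which gave 441 values. Of these, 399 kept their direction and their side of the call rule, 24 lost the call, 4 gained it and 14 changed sign. Hes1 and Nrarp kept their calls against proliferation under all alternatives (Hes1 from -2.50 to -1.14 late and -2.29 to -1.04 early, Nrarp from -2.83 to -1.50 and -2.81 to -1.48). Hey1 kept its call late (1.19 to 1.90). The replicate block changed no member's call (Dll1 late against early -0.65, limma adjusted p = 0.0136) and called 1956 genes higher and 1800 lower late against proliferation. An alternative without replicate 3 of any stage was added after the data had been seen. Causes of these shifts were not tested.

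Without normalisation between arrays the median of all genes shifted to -0.30 late, -0.41 early and 0.09 late against early, and the share of calls that were higher fell from 52.2% to 21.5%, from 52.7% to 15.8% and rose from 39.7% to 67.3%. Calls were then 1027 higher and 3749 lower late (1938 and 1777 as reported), 805 and 4303 early (1845 and 1658), and 302 and 147 late against early (169 and 257). Late against early, calls were 86 and 127 with an offset of 50, 97 and 111 with a common 75th percentile, 102 and 160 from the deposited value table, 259 higher without replicate 3, and 100 to 229 and 148 to 275 with each array left out. Of members, 2 fell late and 2 early with the offset of 50. Early, none rose without normalisation, 2 rose with the 75th percentile, the deposited table and replicate 3 left out, and 1 to 2 with each array left out. Late against early, 0 fell under all 4 of these settings and the offset of 50, and 0 to 1 with each array left out.

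Signs changed where values were near 0, apart from Notch1 without normalisation, at -0.43 late and -0.68 early (limma adjusted p = 0.0840 and 0.0117). Early, Notch1 was -0.0782 with the 75th percentile, -0.00753 with the deposited table and -0.0573 without replicate 3 of any stage. With each array left out, Notch1 ranged from -0.0626 to 0.253 late, from -0.219 to 0.163 early and from -0.0642 to 0.313 late against early, Dll1 from -0.210 to 0.0194 late, and Nrarp from -0.110 to 0.0127 late against early. Of 840 values of 19 other pathway genes, 787 stayed, 45 lost the call, 5 gained it and 3 changed sign. With each array left out, Dlk1 early ranged from -0.0290 to 0.905 and Tle1 early from -0.380 to 0.0596, and Tle1 was 0.12 without replicate 3 of any stage. Calls of pathway genes ranged from 5 to 9 higher and 8 to 18 lower late and from 0 to 9 and 5 to 17 early. Dim signal limits Hes5, Notch2, Dll3 and Jag1.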
